A study of Homo sapiens with 9 samples.

Results

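ATF4 is the transcription factor at the centre of the integrated stress response, and the genes described here are ATF4, its bZIP partners and feedback regulators, and its targets in amino acid synthesis, amino acid transport and stress signalling. The 39 genes were taken by symbol from a list of such roles, which was chosen with earlier results of these data known. Of them, 38 were found among the 31558 genes of the count table, while VLDLR was not analysed here. RNA-seq was performed on HCT116, a human colorectal cancer cell line, in 3 groups of 3 biological replicates each. CRLM1-OE cells stably carried a pTSB plasmid expressing the lncRNA CRLM1 (LINC01767), Ctrl cells carried the empty (free) plasmid, and Anti cells carried a plasmid with CRLM1 antisense sequence. All 3 groups therefore carried the vector, and no cells without plasmid entered the comparisons. No stress treatment is named in the labels. The authors' methods describe puromycin selection of the CRLM1 vector lines, and whether it was present at harvest is not stated. Each group is described as 1 stable line, although the paper's Results call these cells transfected. The p-values measure the spread between replicates of a group, not between lines made independently.

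Cells short of amino acids or heme, or with unfolded protein in the endoplasmic reticulum, phosphorylate the translation initiation factor eIF2, which lowers general protein synthesis but favours translation of the ATF4 mRNA. ATF4 protein then pairs with C/EBP family members at C/EBP-ATF response elements (CARE) and switches on amino acid transporters, biosynthetic enzymes and stress regulators, among them PPP1R15A (GADD34), which brings a phosphatase back to eIF2. Because ATF4 is controlled largely by translation, its mRNA level does not stand for its protein level, and no protein was measured here.

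The response element was searched in RefSeq promoters (build GRCh38.p14, 250 bases before to 50 bases after each annotated start) to show which of these genes carry it next to their start. With the letters TGATGNAA on both strands, 9 of the 31 members with a promoter window held a match (29%), against 4.46% of 27305 genes. The members were listed as ATF4 targets and partners, so a higher share among them is partly built into the list. A gene counted if any of its windows matched, and the 31 members had 50 windows against 35116 for the 27305 genes. The 9 sites are shown because they give the letters of the element that these genes carry, with capitals marking the 8 matching bases. Sequences are written 5′ to 3′ along the strand of the gene, and for SLC1A4, SLC3A2 and CHAC1 the match is on the opposite strand, so the capitals there are its reverse complement.
ASNS (chr7:97872458-97872487, minus strand): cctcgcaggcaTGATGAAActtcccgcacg
SLC7A1 (chr13:29595663-29595692, minus strand): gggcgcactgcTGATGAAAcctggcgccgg
ATF3 (chr1:212565205-212565234, plus strand): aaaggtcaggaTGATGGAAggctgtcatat
CEBPG (chr19:33374060-33374089, plus strand): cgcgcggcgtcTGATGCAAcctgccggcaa
JDP2 (chr14:75427995-75428024, plus strand): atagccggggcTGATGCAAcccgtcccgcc
SLC1A5 (chr19:46784893-46784922, minus strand): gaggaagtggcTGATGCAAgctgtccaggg
SLC1A4 (chr2:64989381-64989410, plus strand): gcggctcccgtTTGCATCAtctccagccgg
SLC3A2 (chr11:62881725-62881748, plus strand): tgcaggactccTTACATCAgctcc
CHAC1 (chr15:40953251-40953280, plus strand): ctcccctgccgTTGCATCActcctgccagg
The matches of CEBPG, JDP2 and SLC1A5 share the same 8 bases, TGATGCAA, which are also those of SLC1A4 and CHAC1 read on the opposite strand. ASNS and SLC7A1 share TGATGAAA. Several of these genes have more than 1 promoter window (3 for JDP2, SLC1A5 and SLC3A2, 2 for ATF3, ASNS, CEBPG and SLC1A4). Each match lies in 1 window. From that window's annotated start, the match began at base -68 in ASNS, -42 in CEBPG, -16 in JDP2 and -97 in SLC1A5. It lay past the start in SLC7A1 (base 8) and SLC3A2 (base 38), spanned it in SLC1A4, and began at -191 in ATF3 and -209 in CHAC1.

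The cAMP response element, searched as the palindrome TGACGTCA, was added because PPP1R15A stood apart from the other genes, and was thus chosen after its values were seen. PPP1R15A was the only one of the 31 members to hold it, at bases -58 to -51, and this share of 3.23% is near the 2.25% of all genes. The 8-base runs of both elements differ at a fixed base, so a stretch cannot match both.
PPP1R15A (chr19:48872352-48872381, plus strand): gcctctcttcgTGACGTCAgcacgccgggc
A match is a description of the letters and says nothing of binding in these cells. GPT2, PSPH, ALDH1L2, SLC7A11, SHMT2, NUPR1, EIF4EBP1 and PYCR1 had no window in the table used.

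Total counts ranged from 33302292 to 44514692 per sample, so that 3 counts, taken as the floor of detection, equal 0.0674 to 0.0901 CPM (counts scaled to library size) and cover counting error only. The CRLM1 counts were 38704, 32751 and 35726 in the CRLM1-OE samples, 0 in every Ctrl sample, and 1951, 1777 and 1540 in the Anti samples. All 6 epithelial markers were found, with summed levels of 9776 to 9853 CPM in CRLM1-OE, 11550 to 11660 in Ctrl and 9576 to 9640 in Anti, and KRT19 led. Of the fibroblast markers, 3 of 4 were found, and their sum was 14.96 to 18.09 CPM in CRLM1-OE, 9.14 to 9.90 in Ctrl and 9.46 to 10.6 in Anti, mostly COL1A1, and its part in the results was not tested. Leukocyte, endothelial and hepatocyte markers summed to at most 0.266, 1.00 and 0.171 CPM in any sample. In bulk RNA such as this, fewer cells expressing a gene and less RNA per cell cannot be told apart.

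Most of these stress response genes were well expressed in these HCT116 cells, for which no stress treatment is named. In Ctrl, on the authors' FPKM scale, which corrects for gene length, DDIT4, an inhibitor of mTORC1, had the highest level (759.0 ± 7.98, SD, n = 3), followed by the secreted stress cytokine GDF15 (588.0 ± 10.9). ATF3 (263 ± 5.68) and DDIT3 (258 ± 3.98) overlapped in range, as did ATF4 (238 ± 3.35) and SLC3A2 (235 ± 2.66). The lowest of the genes averaging 100 or more counts were ATF5 (5.61 ± 0.110), SLC7A11 (4.89 ± 0.170), SLC1A4 (3.94 ± 0.210) and KLHL24 (1.45 ± 0.133), and none of these neighbours overlapped. NUPR1 (7 to 76 counts per sample) and ALDH1L2 (8 to 27 counts) had few counts. The entry found under the symbol CBS (chromosome 21, 6444869 to 6467513, GRCh38) had 0 or 1 count in every sample. The genome holds a near-identical copy of this gene, and this entry may be that copy. The value therefore does not show that CBS was off.

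**Figure D1:**
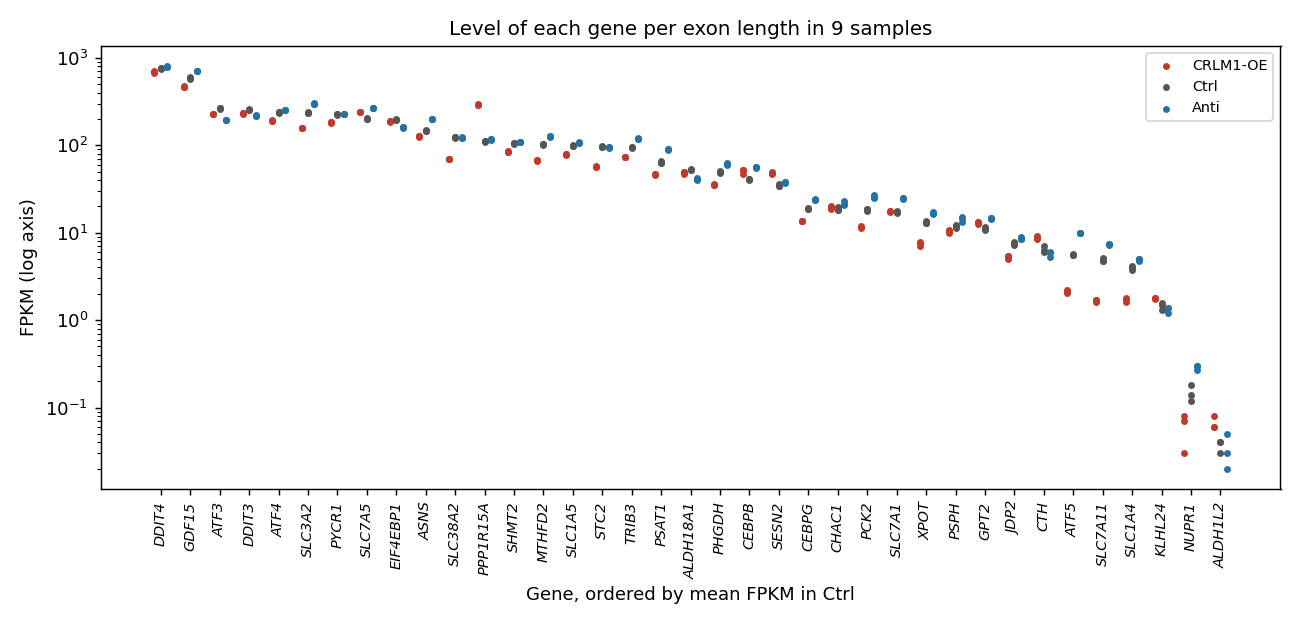
Levels of the stress response genes in the 3 groups on the authors' FPKM scale (log axis), ordered by the mean level in Ctrl, with 1 point per sample. DDIT4 and GDF15 lead at 759.0 and 588.0 FPKM in Ctrl, while ATF5 and SLC7A11 sit near the low end at 5.61 and 4.89.

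Compared with Ctrl, CRLM1-OE cells had lower mRNA for most of the programme. The cystine transporter SLC7A11, the transcription factor ATF5, the neutral amino acid transporter SLC1A4 and NUPR1 fell by more than the 2-fold call threshold. The eIF2 phosphatase subunit PPP1R15A rose past it. The call of NUPR1 rests on few counts, 7 to 20 per sample in CRLM1-OE and 27 to 50 in Ctrl. ATF4 mRNA itself was lower in CRLM1-OE than in both control lines. By edgeR's quasi-likelihood test with Benjamini-Hochberg adjustment over all genes, 28 of 37 members tested were lower at an adjusted p of at most 0.05 and 7 were higher, where 16.8% and 15% of all genes tested passed in these directions. Among genes averaging 100 or more counts over the 6 samples, where far more genes pass, 27 of 35 members were lower against 38.8% of genes, and 7 of 35 were higher against 29.2%. The CRLM1-OE samples lay below all Ctrl samples for 28 of 37 members (background 19.3%) and above them for 7 (background 18.3%). With a change of 2-fold or more also required, 4 of 37 members were lower (background 0.915%) and 1 was higher (background 2.5%), so the share called higher was near the background. The median log2 fold change of the members was -0.42, against 0.017 over all genes tested and -0.045 over genes averaging 100 or more counts. The members were chosen with earlier results of these data known. Part of any difference from the background, here and in the other comparisons, may come from that choice.

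The comparison of CRLM1-OE with Anti uses the same CRLM1-OE libraries, so it is not independent of the first, and its values are given beside it. In that comparison 28 of 38 members were lower (background 18.5%) and 8 were higher (background 17.1%). Among genes averaging 100 or more counts these were 27 of 35 (background 40.2%) and 7 of 35 (background 33.9%), and the groups did not overlap for 28 lower and 9 higher members (backgrounds 21% and 20.1%). Of these, 6 were called lower at a 2-fold change (background 2.56%), with PCK2 and the tRNA exporter XPOT added to the 4 above, and PPP1R15A alone was called higher (background 3.09%). The median was -0.53, against -0.023 over all genes.

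The control lines also differed from each other. Anti against Ctrl gave 0 members called in either direction at a 2-fold change (backgrounds 0.683% higher and 0.38% lower), but 20 of 38 members were higher at an adjusted p of at most 0.05 (background 11.5%) and 9 were lower (background 12.2%), with a median of 0.17 against 0.0047 over all genes. Among genes averaging 100 or more counts, 19 of 35 members were higher (background 25.3%) and 9 were lower (background 28.9%), and the groups did not overlap for 22 higher and 8 lower members of 38 (backgrounds 16.9% and 14%). By DESeq2's Wald test 19 were higher and 8 lower, and again 0 were called. Scaled by total counts alone the split was 27 higher and 5 lower, since that scaling moved the median of genes averaging 100 or more counts from -0.0067 to 0.098 in this comparison and from -0.045 to 0.096 in CRLM1-OE against Ctrl. Small differences below are therefore relative to the TMM scaling.

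Sample by sample, the groups separated without overlap. Over the 35 members averaging 100 or more counts, the median log2 difference from the Ctrl mean was -0.41, -0.45 and -0.42 in the CRLM1-OE samples, 0.0099, -0.0059 and -0.012 in the Ctrl samples, and 0.19 in each Anti sample. The members below the Ctrl mean numbered 28, 28 and 27 in the 3 CRLM1-OE samples. Those above it numbered 24, 23 and 26 in the Anti samples. Within a group, the coefficient of variation of a member lay between 0.22% and 9.25%, with a median of 1.67%.

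**Figure D2:**
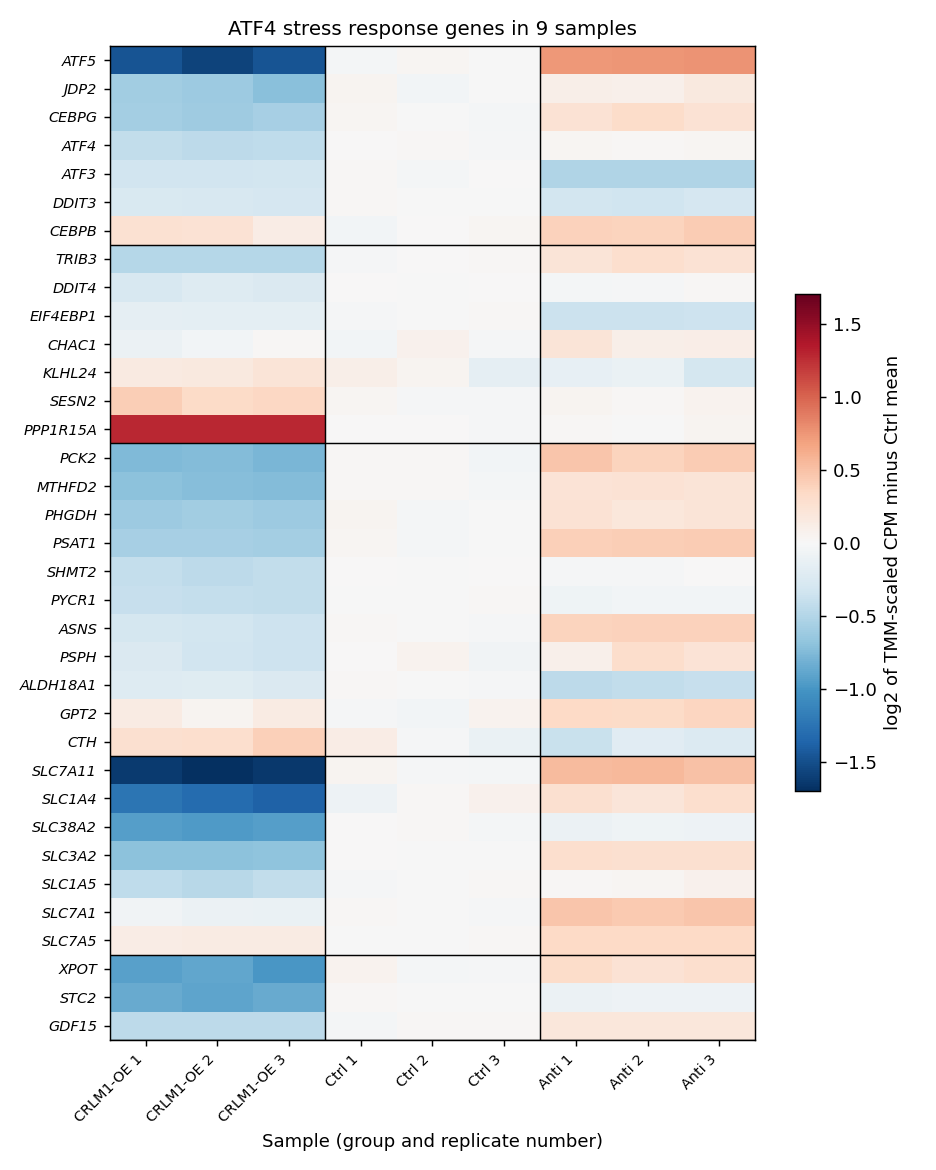
Log2 level of each member averaging 100 or more counts relative to its Ctrl mean, with the 9 samples in columns and the genes in rows grouped by role (TMM-scaled CPM). The CRLM1-OE columns are below the Ctrl mean for 27 or 28 of 35 genes, with PPP1R15A the furthest above it, and the Anti columns are above it for 23 to 26.

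**Figure D3:**
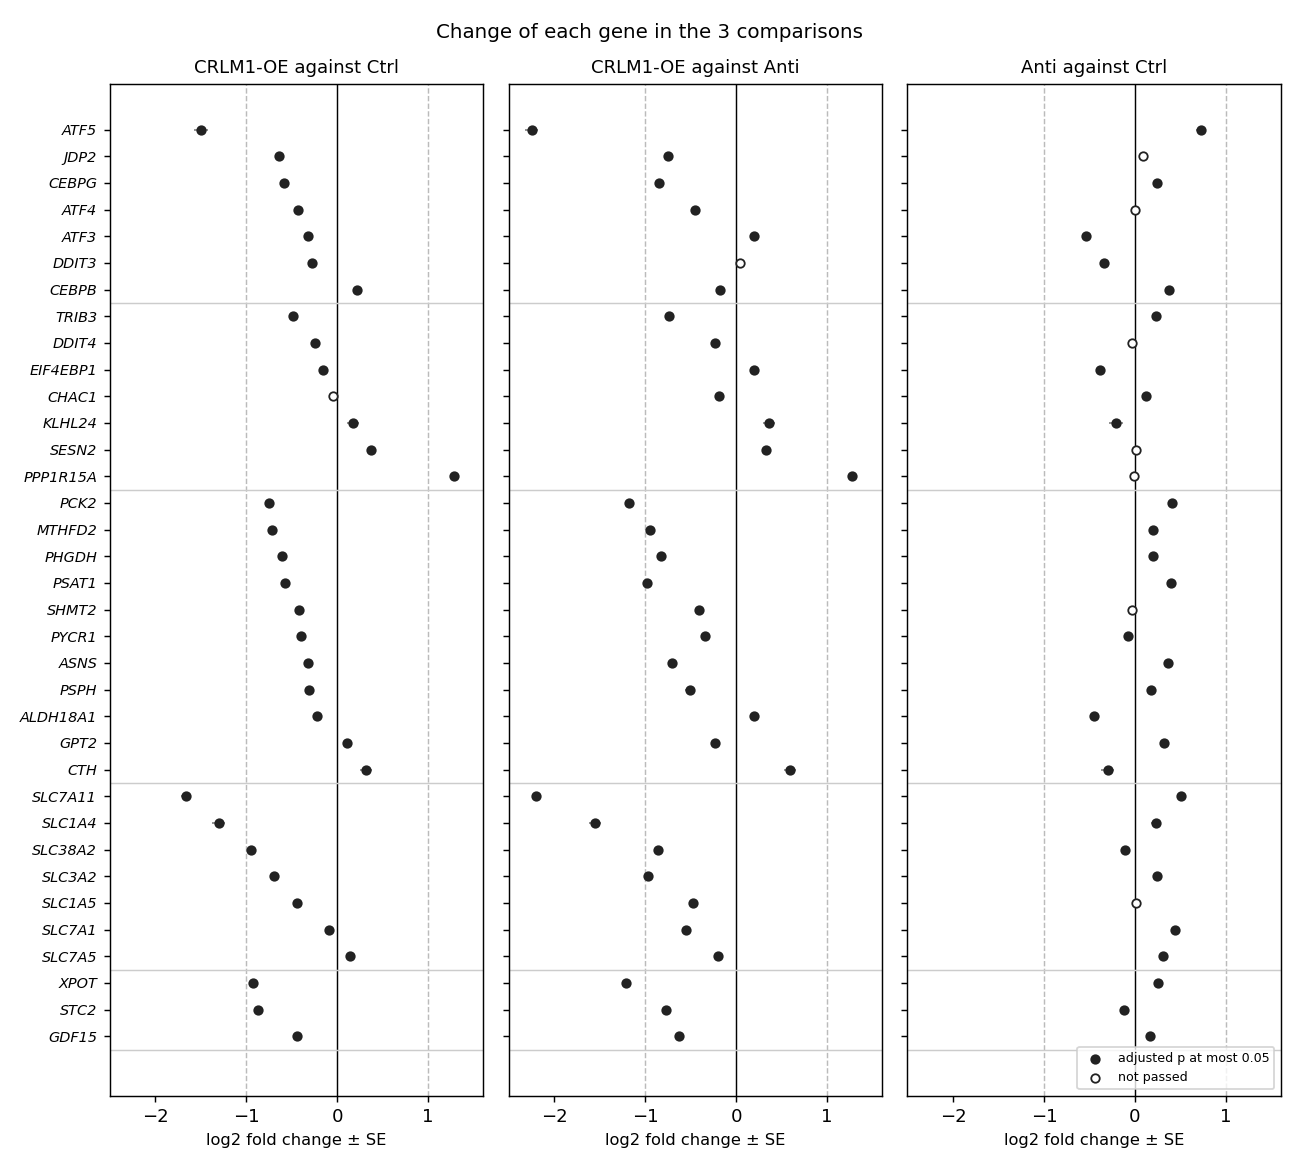
Log2 fold change of each of these 35 genes in the 3 comparisons, with genes grouped by role. Bars are 1 standard error derived from edgeR's F statistic. Filled points passed the adjusted p, open points did not, and dashed lines mark a 2-fold change. SLC7A11, ATF5 and SLC1A4 lie furthest below 0 in both comparisons of CRLM1-OE, and PPP1R15A lies furthest above at 1.29 and 1.27.

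Of the 8 transcription factors, 7 were lower and 1 was higher in CRLM1-OE against Ctrl, where their median change was -0.51 (log2), and 6 were lower and 1 higher against Anti. Here and in the other groups by role, the counts stand beside 16.8% of all genes lower and 15% higher against Ctrl (38.8% and 29.2% of those averaging 100 or more counts), and 18.5% lower and 17.1% higher against Anti (40.2% and 33.9%). ATF4 (chromosome 22, 39519695 to 39522683, GRCh38) had TMM-scaled levels of 532.9, 520.2 and 527.4 CPM in CRLM1-OE, 711.8, 718.5 and 697.8 in Ctrl, and 724.7, 716.8 and 724.5 in Anti. The 3 CRLM1-OE samples lay below all others, while Ctrl and Anti overlapped. The log2 fold change was -0.43 (SE 0.021, adjusted p = 2.7e-92) against Ctrl and -0.45 (SE 0.018, adjusted p = 6.2e-136) against Anti, and for Anti against Ctrl the adjusted p was 0.999. With total counts that last change was 0.11 (adjusted p = 6.0e-07).

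ATF5, a relative of ATF4 that is itself among its targets, changed most of the factors with more than 100 counts. Its levels were 6.178, 5.734 and 6.182 CPM in CRLM1-OE, 16.68, 17.53 and 17.09 in Ctrl, and 28.39, 28.81 and 29.07 in Anti. The 3 groups did not overlap, and their order was CRLM1-OE, Ctrl, Anti. The log2 fold change of ATF5 was -1.50 in CRLM1-OE against Ctrl (SE 0.081, adjusted p = 4.7e-74), and it was -2.25 against Anti (SE 0.071, adjusted p = 1.7e-219) and 0.73 for Anti against Ctrl (SE 0.058, adjusted p = 5.9e-34). ATF5 (chromosome 19, 49928702 to 49933935) shares 22.1% of its exon bases with IL4I1 and NUP62 on the opposite strand, and whether counting used strand is not given in the sources used here.

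NUPR1, a small stress-induced chromatin protein listed here with the transcription factors, showed the same order at a far lower level. It had 0.456, 0.4279 and 0.1766 CPM in CRLM1-OE, 1.181, 0.7874 and 0.9292 in Ctrl, and 1.877, 1.677 and 1.906 in Anti. The groups did not overlap, and the changes were -1.45 against Ctrl (SE 0.31, adjusted p = 1.1e-05), -2.35 against Anti (SE 0.26, adjusted p = 5.1e-19) and 0.87 for Anti against Ctrl (SE 0.21, adjusted p = 2.1e-04). Without Ctrl replicate 1, the last value was 1.06 and the gene was called.

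The pro-apoptotic factor DDIT3 (CHOP) and the repressor ATF3 behaved differently from ATF5, since the Ctrl line and not the Anti line was highest. DDIT3 had 300.0, 297.1 and 296.5 CPM in CRLM1-OE, 364.5, 358.6 and 357.2 in Ctrl, and 289, 286 and 295.8 in Anti. The CRLM1-OE samples lay below all Ctrl samples (log2 fold change -0.27, adjusted p = 4.1e-30) and just above the Anti samples (0.041, adjusted p = 0.13). That last adjusted p was 0.046 with RLE factors, 3.0e-06 with total counts and 0.027 without CRLM1-OE replicate 3. With filterByExpr it was 0.030, and with at least 10 counts in every sample 0.011. On the opposite strand, MARS1 and MBD6 share 31.6% of the exon bases of DDIT3. ATF3 had 632.3, 628.9 and 635.6 CPM in CRLM1-OE, 798.5, 775.2 and 796.6 in Ctrl, and 551.8, 556.7 and 554.7 in Anti. Its CRLM1-OE samples lay between the control lines, at -0.32 against Ctrl and 0.19 against Anti, both past the test, and Anti was 0.54 lower than Ctrl (log2 fold change -0.54).

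Among the C/EBP partners of ATF4, CEBPB was the 1 factor higher in CRLM1-OE than in Ctrl. CEBPB had 112.8, 110.9 and 102.5 CPM in CRLM1-OE, 91.16, 94.72 and 95.77 in Ctrl, and 122.9, 121.5 and 126.2 in Anti, with changes of 0.21, -0.18 and 0.37 in the 3 comparisons. Its CRLM1-OE samples thus lay between the control lines, the reverse of the order of ATF3. CEBPG fell against both control lines, at -0.58 and -0.85, from 96.67 to 100.4 CPM in Ctrl to 64.7 to 66.89 CPM in CRLM1-OE. JDP2, a repressor that pairs with Jun proteins, fell by 0.64 and 0.75 on the log2 scale. Its change in Anti against Ctrl did not pass (0.089, adjusted p = 0.088). That change passed without Ctrl replicate 1 (0.12, adjusted p = 0.030) and with total counts (adjusted p = 6.1e-06). It also passed with filterByExpr (adjusted p = 0.041) and with at least 10 counts in every sample (adjusted p = 0.034).

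**Figure D4:**
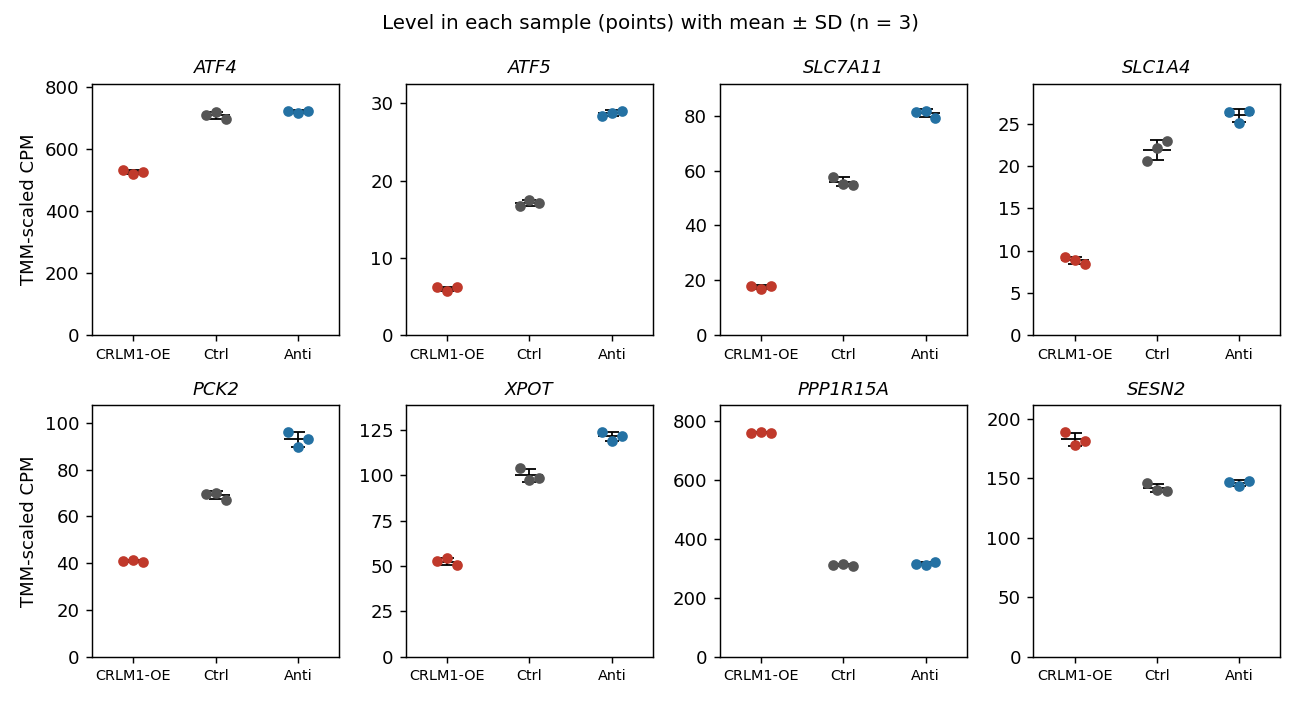
TMM-scaled CPM of selected members in every sample, by group, with a bar at the group mean ± SD (n = 3). ATF5 and SLC7A11 rise in the order CRLM1-OE, Ctrl, Anti without overlap, ATF4 is lower in CRLM1-OE alone, and PPP1R15A lies near 760 CPM in CRLM1-OE against 308.1 to 320.6 in the control lines.

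The genes of feedback and growth control did not move together. Of 7 genes, 3 were higher, 3 were lower and 1 did not pass in CRLM1-OE against Ctrl, and 4 were higher and 3 lower against Anti. PPP1R15A, which directs protein phosphatase 1 to eIF2 and so ends the response, had 756.7, 760.0 and 758.4 CPM in CRLM1-OE, 312.4, 313.1 and 308.1 in Ctrl, and 315.5, 309.9 and 320.6 in Anti. The CRLM1-OE samples lay far above the other 6, and Ctrl and Anti overlapped. The log2 fold change was 1.29 against Ctrl (SE 0.022, adjusted p = 1e-300, the smallest value written) and 1.27 against Anti (SE 0.019, adjusted p = 1e-300), and it was the 1 member called higher in both. For Anti against Ctrl it was -0.0067 (adjusted p = 0.88), which turned to 0.098 with total counts.

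SESN2, a leucine sensor that restrains mTORC1, was also higher in CRLM1-OE alone. It had 188.6, 177.8 and 181.4 CPM in CRLM1-OE, 145.7, 140.1 and 139.5 in Ctrl, and 147.0, 143.6 and 147.6 in Anti. No CRLM1-OE sample overlapped a control sample (log2 fold change 0.37, SE 0.027, adjusted p = 6.7e-39 against Ctrl, and 0.33, SE 0.025, adjusted p = 3.2e-38 against Anti). KLHL24, an adaptor of a ubiquitin ligase, had 15.14, 15.26 and 15.8 CPM in CRLM1-OE, 14.6, 14.06 and 12.2 in Ctrl, and 12.37, 12.54 and 11.04 in Anti. Its change of 0.17 against Ctrl (adjusted p = 0.041) was lost under DESeq2 (adjusted p = 0.079) and with all 9 samples in 1 fit (adjusted p = 0.0755). It was also lost without any 1 of the CRLM1-OE replicates or Ctrl replicate 3 (0.12 to 0.19), whereas 0.36 against Anti held (adjusted p = 1.4e-06).

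The pseudokinase TRIB3, which inhibits ATF4 and AKT, fell from 320.6 to 330.4 CPM in Ctrl and 380.5 to 395.6 in Anti to 231.6 to 233.2 in CRLM1-OE, at -0.49 and -0.73 on the log2 scale. DDIT4 fell by 0.24 and 0.23 on the log2 scale, from 1562 to 1577 CPM in Ctrl to 1295 to 1355 in CRLM1-OE. EIF4EBP1, a repressor of cap-dependent translation, had 213.4, 210.6 and 210.1 CPM in CRLM1-OE, 234.1, 235 and 240.5 in Ctrl, and 184.2, 183.7 and 185.3 in Anti, so CRLM1-OE lay between the control lines. Its change of -0.16 against Ctrl was -0.020 with total counts (adjusted p = 0.57), while 0.20 against Anti and -0.38 for Anti against Ctrl passed. CHAC1, which degrades glutathione, did not pass against Ctrl (-0.043, adjusted p = 0.53) and was -0.19 against Anti.

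Among the enzymes of amino acid and one-carbon synthesis, 9 of 12 tested were lower, 2 higher and 1 did not pass in CRLM1-OE against Ctrl (median -0.36), and 9 of 13 were lower and 3 higher against Anti (median -0.51). The serine branch moved together. PSAT1, the aminotransferase of serine synthesis, had 111.9, 112.1 and 110.8 CPM in CRLM1-OE, 170.0, 162.5 and 164.4 in Ctrl, and 219.3, 221.9 and 222.8 in Anti, and the 3 groups did not overlap (-0.57, -0.98 and 0.39 in the 3 comparisons). PHGDH, the first enzyme of that branch, was at -0.61 and -0.82, and PSPH, its last, at -0.31 and -0.51. MTHFD2, a mitochondrial folate enzyme, was at -0.72 and -0.95, and SHMT2, which feeds it from serine, at -0.42 and -0.41. Both members of this folate pair had CRLM1-OE samples below all control samples.

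ASNS, the asparagine synthetase and a classic ATF4 target, had 338.3 to 351.7 CPM in CRLM1-OE, 426.8 to 439.7 in Ctrl and 563.2 to 566.1 in Anti, at -0.32, -0.71 and 0.36. PCK2, the mitochondrial enzyme that makes phosphoenolpyruvate, had 40.92, 41.33 and 40.35 CPM in CRLM1-OE, 69.75, 70.19 and 67.02 in Ctrl, and 95.95, 89.68 and 93.07 in Anti. Its fall was -0.76 against Ctrl (SE 0.039, adjusted p = 2.0e-80) and was called against Anti at -1.18 (SE 0.035, adjusted p = 3.7e-246), and Anti was 0.40 above Ctrl. These groups did not overlap either.

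The proline branch differed between its members. PYCR1, which makes proline, fell to -0.40 and -0.34. ALDH18A1, which acts before it, had 179.2, 181.2 and 175.9 CPM in CRLM1-OE, 211.5, 208.2 and 205.9 in Ctrl, and 152.7, 156.3 and 158.8 in Anti. CRLM1-OE thus lay between the control lines (-0.22 against Ctrl, 0.20 against Anti), and Anti was lowest (-0.45 against Ctrl).

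CTH, which releases cysteine from cystathionine, and GPT2, an alanine aminotransferase, were the enzymes higher in CRLM1-OE than in Ctrl. CTH had 19.97, 20.05 and 21.83 CPM in CRLM1-OE, 17.96, 16.3 and 15.26 in Ctrl, and 12.62, 14.43 and 14.05 in Anti. The order of its groups was the reverse of that of SLC7A11, with changes of 0.32 (adjusted p = 2.4e-06), 0.59 (adjusted p = 1.9e-19) and -0.30 (adjusted p = 1.3e-04). GPT2 was at 0.11 (adjusted p = 0.011), -0.23 and 0.32, and the first of these missed the adjusted p of 0.05 without CRLM1-OE replicate 1 or 3, or Ctrl replicate 2, at a change of 0.097 to 0.098. ALDH1L2 was at 0.69 against Ctrl (adjusted p = 0.14), which passed with at least 10 counts in every sample (adjusted p = 0.042). Against Anti it was at 0.85 (adjusted p = 0.047). The change against Anti was lost under DESeq2 (adjusted p = 0.146), with all 9 samples in 1 fit (adjusted p = 0.0515) and with a replicate block (adjusted p = 0.0502). It was also lost without CRLM1-OE replicate 2 or 3 or Anti replicate 2 or 3 (0.66 to 0.90).

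The amino acid transporters had the largest median fall of the groups with 7 or more genes, -0.69 against Ctrl and -0.86 against Anti, with 6 of 7 lower and 1 higher in the first and 7 of 7 lower in the second. SLC7A11 (chromosome 4, 138164097 to 138242349), which imports cystine in exchange for glutamate, had 18.06, 16.75 and 17.97 CPM in CRLM1-OE, 57.75, 55.0 and 54.82 in Ctrl, and 81.43, 81.85 and 79.13 in Anti. The groups were well apart. The log2 fold change was -1.67 against Ctrl (SE 0.048, adjusted p = 1.8e-257), -2.19 against Anti (SE 0.043, adjusted p = 1e-300) and 0.51 for Anti against Ctrl (SE 0.036, adjusted p = 3.0e-43). An antisense gene, SLC7A11-AS1, covers 8.97% of its exon bases.

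SLC3A2, the heavy chain that carries SLC7A11 and SLC7A5 to the membrane, fell less, with 454.2 to 458.5 CPM in CRLM1-OE, 734.4 to 742.4 in Ctrl and 886.5 to 897.5 in Anti (-0.69, -0.96 and 0.25). SLC7A5, the leucine transporter that shares this heavy chain, did not follow it. It had 1196 to 1207 CPM in CRLM1-OE, 1086 to 1104 in Ctrl and 1377 to 1387 in Anti, so it was 0.14 above Ctrl and at -0.20 against Anti. The partners of the one heavy chain therefore stood at -1.67 and 0.14 against Ctrl in the same libraries.

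SLC1A4, which carries alanine, serine and cysteine, had 9.233, 8.843 and 8.402 CPM in CRLM1-OE, 20.56, 22.08 and 22.99 in Ctrl, and 26.35, 25.13 and 26.54 in Anti. The groups did not overlap, and it was called against both control lines, at -1.30 (SE 0.070, adjusted p = 6.9e-75) and -1.55 (SE 0.067, adjusted p = 6.8e-118). SLC38A2, a sodium-coupled glutamine and alanine transporter, had 384.5, 379.0 and 385.1 CPM in CRLM1-OE, 740.7, 750.2 and 719.5 in Ctrl, and 690.7, 699.2 and 696.0 in Anti. Its falls of -0.94 and -0.86 stopped just short of the 2-fold call. SLC1A5, the main glutamine carrier, was at -0.44 and -0.48, with Anti against Ctrl at 0.013 (adjusted p = 0.73), or 0.12 with total counts (adjusted p = 5.8e-07).

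SLC7A1, the cationic amino acid transporter that imports arginine, was near Ctrl in CRLM1-OE and separated mainly in Anti. It had 143.6, 140.2 and 138.0 CPM in CRLM1-OE, 152.1, 148.8 and 148.2 in Ctrl, and 208.4, 204.7 and 207.8 in Anti. The change against Ctrl was -0.090 (SE 0.028, adjusted p = 0.0056) and turned to 0.051 with total counts (adjusted p = 0.18), and it was also lost without CRLM1-OE replicate 3 (-0.073) or Ctrl replicate 1 (-0.069). The changes of -0.55 against Anti and 0.44 for Anti against Ctrl kept their direction under each alternative.

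The secreted factors GDF15 and STC2 and the tRNA exporter XPOT were all lower in CRLM1-OE against both control lines. XPOT had 52.78, 54.4 and 50.41 CPM in CRLM1-OE, 103.8, 97.55 and 98.49 in Ctrl, and 123.7, 118.8 and 121.9 in Anti. Its changes were -0.93 against Ctrl (SE 0.035, adjusted p = 2.6e-153) and -1.21 against Anti (SE 0.031, adjusted p = 1e-300), where it was called. STC2, a secreted glycoprotein, was at -0.87 and -0.77, and Anti against Ctrl was at -0.12, or -0.012 with total counts (adjusted p = 0.73). GDF15 was at -0.44, -0.63 and 0.16.

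The changes of the members with and without a response element are set side by side here. Of the 9 with a match, 8 were lower, 0 were higher and 1 did not pass, with a median of -0.44 in CRLM1-OE against Ctrl, and of 20 members with a window but no match, averaging 100 or more counts, 14 were lower and 6 higher, with a median of -0.44. Against Anti the medians were -0.71 with and -0.54 without the element, and for Anti against Ctrl 0.23 and 0.091. These are descriptions of small sets and carry no test, so they show neither a difference nor its absence.

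Level and change were not closely related across the 35 members. With the level taken from the group that the comparison leaves out, Spearman's rho was 0.078 for CRLM1-OE against Ctrl, 0.23 for CRLM1-OE against Anti and -0.40 for Anti against Ctrl. These points are genes of the same libraries and no replicates of each other.

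The genes around this programme were read from 5 lists outside the members. The median changes of these lists, in the order given below, were -0.16, -0.13, -0.18, 0.17 and -0.12 in CRLM1-OE against Ctrl, -0.18, -0.37, -0.17, 0.028 and -0.50 against Anti, and 0.036, 0.23, 0.14, -0.055 and 0.15 in Anti against Ctrl, where the medians over all genes and the shares of genes that passed are those given above. Of 19 genes for eIF2, its kinases and its regulators, 13 were lower, 2 higher and 4 did not pass in CRLM1-OE against Ctrl, and 10 were lower and 5 higher against Anti. DNAJC3 (P58IPK), an inhibitor of eIF2 kinases, changed most, from mean levels of 59.1 CPM in Ctrl and 78.8 in Anti to 31.0 in CRLM1-OE (-0.93, -1.34 and 0.39). EIF2AK2 (PKR), the kinase activated by double-stranded RNA, was at -0.69 and -0.96, and EIF2S3, a subunit of eIF2, at -0.72 against Anti. GCN1L1, the activator of the amino acid sensing kinase GCN2, was higher, at 0.65 against Ctrl. In Anti against Ctrl the counts were 6 higher and 6 lower, with EIF2B2 at -0.38 and EIF2AK1 (HRI) at -0.32.

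Of 17 further reported ATF4 targets, 8 were lower, 3 higher and 6 did not pass against Ctrl, and 12 were lower and 2 higher against Anti. The glycine transporter SLC6A9 (-1.11 and -1.57), FAM129A (-0.91 and -1.62) and CEBPD (-0.87 and -1.38) fell in both comparisons of CRLM1-OE. FAM129A and CEBPD were also above Ctrl in Anti, at 0.69 and 0.48, as was ADM2 at 0.68. In that comparison 7 of the list were higher and 2 lower.

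Other one-carbon and glycine enzymes gave 7 of 15 lower and 2 higher against Ctrl, 9 lower and 3 higher against Anti, and 6 higher and 2 lower in Anti against Ctrl. TYMS, the thymidylate synthase, was at -0.46, -0.75 and 0.27. MTRR was at -0.36 against Ctrl, and MTR, the methionine synthase, at -0.60 against Anti and 0.39 in Anti against Ctrl.

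The glutamine, proline and urea cycle enzymes outside the members went the other way against Ctrl, with 7 of 14 higher, 4 lower and 3 not passed. Against Anti they were 5 higher and 4 lower, and in Anti against Ctrl 3 higher and 6 lower. PYCRL, another proline-forming enzyme, fell (-0.62 and -1.34, with 0.69 in Anti against Ctrl), whereas ARG2, the mitochondrial arginase, rose at 0.45 and 0.83 (-0.41 in Anti against Ctrl). ASL, the argininosuccinate lyase, was at 0.45 against Ctrl and 0.48 in Anti against Ctrl, and GLUD1, the glutamate dehydrogenase, was at 0.41 against Anti.

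Of 19 other amino acid transporters 17 were found, with 7 lower, 6 higher and 4 not passed against Ctrl, 9 lower and 3 higher against Anti, and 3 lower and 5 higher in Anti against Ctrl. SLC38A1, the relative of SLC38A2, had 56.29, 53.14 and 53.92 CPM in CRLM1-OE, 148.4, 149.8 and 141.7 in Ctrl, and 191.7, 196.2 and 196.5 in Anti (-1.43, -1.83 and 0.38). The glutamate transporter SLC1A3 was lowest in CRLM1-OE as well (-1.47 and -1.10), but it was also lower in Anti than in Ctrl (-0.39). SLC36A4 was at -0.74 against Ctrl, SLC7A2, a cationic transporter related to SLC7A1, at -0.97 against Anti, and SLC43A2 at 0.71 in Anti against Ctrl.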

How the data were processed

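Poly(A) RNA of 9 HCT116 samples was sequenced by the authors, who clipped adaptors with the FASTX-Toolkit, removed reads shorter than 16 nt and used TopHat2 (up to 4 mismatches) for alignment to GRCh38 with Gencode 23. The deposited counts are numbers of uniquely mapped reads for each gene. The deposited FPKM values of the authors, scaled for length and depth, were used for levels only.

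Counts were tested with edgeR 4.0.16 in R 4.3.3 (TMM, glmQLFit and glmQLFTest) on the 6 samples of each comparison, over every gene with at least 1 count, with Benjamini-Hochberg adjustment over all of them. Standard errors (SE) were derived as the absolute log2 fold change divided by the square root of the test's F statistic. Genes changed 2-fold or more at an adjusted p no higher than 0.05 were called. Sample values are CPM scaled by TMM factors of all 9 samples. Members given with every sample's value were ATF4, DDIT3, each member called in any comparison, and the 5 largest rises and falls per comparison among those past the adjusted p and averaging 100 or more counts. From each further list the 3 largest changes are named, except for 1 gene that is not reported here. The members and lists were chosen with earlier results of these data known. Replicates differed beyond counting noise (chi-square per degree of freedom 2.15 to 4.71 over 11702 genes). Exon overlaps came from GENCODE 44 (11 of 38 members overlap an opposite-strand exon), promoters from RefSeq. Besides DDIT3, ATF5 and SLC7A11, the largest opposite-strand shares of exon bases were 23.8% in SLC1A5, 15.6% in PYCR1, 14.1% in MTHFD2 and 12.6% in CEBPB. On the same strand 5 members overlap an exon of another gene, among them ASNS with 2415 of its 4896 exon bases. The part of these overlaps in the counts was not tested.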

Additional observations from a re-analysis of the deposited data

How the results depend on the processing

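The alternatives were RLE factors, total counts without factors, filterByExpr, at least 10 counts in every sample, DESeq2 1.42.0, 1 fit over all 9 samples, a block for the replicate number, and each replicate left out. Over the single genes and alternatives, 1411 values kept their side of the threshold, 30 lost significance, 13 gained it and 5 reversed. A reversal was a change of sign where either fit passed the adjusted p of 0.05. Changes of sign where neither fit passed are among the 1411, as for ATF4 in Anti against Ctrl (-0.0078 to 0.017 with 1 replicate left out). The reversals all came with total counts: SLC7A1 in CRLM1-OE against Ctrl (0.051), and in Anti against Ctrl DDIT4 (0.068), PPP1R15A (0.098), SHMT2 (0.070) and PYCR1 (0.024). Total counts moved the median of the members to -0.28 in CRLM1-OE against Ctrl, -0.47 in CRLM1-OE against Anti and 0.28 in Anti against Ctrl, and left 5 members lower in the last. A minimum of 10 counts, which leaves out low genes, gave medians of -0.39 and -0.49 for CRLM1-OE against Ctrl and Anti. It also gave 3 and 5 members called lower, against 4 and 6 in the main fits. NUPR1, with 7 counts in CRLM1-OE replicate 3, is left out by this minimum.

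With 1 replicate left out, the medians ranged from -0.43 to -0.40 (CRLM1-OE against Ctrl), -0.56 to -0.50 (CRLM1-OE against Anti) and 0.15 to 0.18 (Anti against Ctrl). Members called higher were 1 to 2 in CRLM1-OE against Anti, with ALDH1L2 (1.24) added without Anti replicate 1, and 0 to 1 in Anti against Ctrl, with NUPR1 (1.06) added without Ctrl replicate 1. Called members otherwise kept their number in these fits, which was 4 lower and 1 higher in CRLM1-OE against Ctrl.

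Replicate numbers do not pair the samples: same-numbered samples correlated at -0.0226 to 0.0747 over 9 pairs in their deviations from the group means, other pairs at -0.0678 to 0.0361, and 0 samples were closest to their own number in both other groups. With the replicate block, the medians were -0.42, -0.53 and 0.17, the counts of called members did not move, and 1 call at an adjusted p of at most 0.05 was lost, that of ALDH1L2 in CRLM1-OE against Anti (0.85, adjusted p = 0.0502).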

Other observations

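Copies and antisense partners of the members were measured where they had counts. CEBPB-AS1, which overlaps CEBPB on the opposite strand, averaged 1.73 CPM in Ctrl, 2.81 in Anti and 2.69 in CRLM1-OE, and passed edgeR's test in CRLM1-OE against Ctrl (0.63, adjusted p = 7.6e-04) and in Anti against Ctrl (0.67, adjusted p = 3.9e-04). SLC7A5P1, a copy of SLC7A5, averaged 2.53 CPM in Ctrl, 1.88 in Anti and 1.57 in CRLM1-OE, and was lower in CRLM1-OE than in Ctrl (-0.71, adjusted p = 2.1e-04), whereas SLC7A5 itself was higher there. AMT, an enzyme of the glycine cleavage system with a mean count of 60.3 in CRLM1-OE against Ctrl, was called higher in CRLM1-OE against both control lines, at 1.30 and 1.15. It was named after its values were seen.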
